A study of Mus musculus with 6 samples.

Results

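Mitochondrial ribosomal proteins, the protein part of the ribosomes inside mitochondria, were examined in melanoma cells from mice with floxed alleles of the histone methyltransferase gene Kmt2d. Genes were taken by symbol: every gene of the count files whose symbol begins with Mrpl (large subunit series) or Mrps (small subunit series) followed by a number. The rule found 77 of 24391 genes, 48 Mrpl and 29 Mrps symbols. RNA sequencing had been run on 3 KMT2D KO and 3 KMT2D WT libraries of cells isolated from ear tumours of iBIP mice and cultured in DMEM. KMT2D KO cells came from iBIP mice carrying KMT2DL/L, a floxed pair of alleles, and KMT2D WT cells from iBIP mice that were KMT2D+/+. Both groups shared the rest of the genotype: the inducible Cre Tyr-CreERT2, which the tyrosinase promoter directs to melanocytes, the doxycycline-dependent activator Rosa26-rtta, the transgene TetO-BRAFV600E, and the floxed tumour suppressor alleles PTENL/L and INK/ARFL/L, on a mix of FVB and B6. Mice of both groups had received doxycycline, and 4-OHT, the tamoxifen metabolite that activates the Cre, at 1 µM on the ears. The extraction protocol in the labels names cerebellar tissue, whereas the other labels name tumour cells. No label states whether the 3 libraries per group stem from 3 mice, from several tumours or from repeat cultures. Each p-value below thus reflects library-to-library spread, possibly technical, and an effect of genotype and a difference between the source tumours cannot be told apart.

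Mitochondrial ribosomes translate the few proteins still encoded by mitochondrial DNA, all of them subunits of the respiratory chain and ATP synthase. Their RNA comes from the mitochondrial genome, but all their proteins are encoded by nuclear genes scattered over the chromosomes, translated in the cytosol and imported. Some belong to families shared with bacterial ribosomes and others were added during the evolution of mitochondria. Many of the nuclear genes have short promoters in which binding motifs of NRF1, of the ETS family factor GABP and of YY1 have been described.

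The 77 genes are transcribed from many separate promoters, and the bases just upstream of 7 of them are shown, 4 that fell and 3 that rose in KMT2D KO. Mrpl20 is shown as a large fall without a match to any motif searched, and the other 6 were chosen among the larger changes because they hold one. Each run is the 150 bases before the annotated start, 5′ to 3′ on the strand of the gene, from RefSeq (GRCm38.p6, a later build than the mm9 of the counts). Capitals mark a match to the NRF1 motif (GCGC, any base, then TGCGC) or the ETS motif CCGGAAG, read on both strands. The YY1 motif ATGGCGG was searched as well and had no match in these bases of any gene named in this paragraph. Positions are those of the first base of the match relative to the start. The Mrps27 run (chr13:99344636-99344785, plus strand) holds an ETS match at -48, that of Mrpl32 (chr13:14613038-14613187, minus strand) an NRF1 match at -87, and that of Mrps22 (chr9:98601680-98601829, minus strand) an ETS match at -11. The Mrpl44 run (chr1:79775868-79776017, plus strand) holds an NRF1 match at -35, that of Mrpl43 (chr19:45006443-45006592, minus strand) ETS matches at -56 and -12, and that of Mrps26 (chr2:130563607-130563756, plus strand) an ETS match at -14. The Mrpl20 run (chr4:155802728-155802877, plus strand) holds no match, and neither do the same bases of Mrps10, Mrps18b, Mrpl47 and Mrpl36, which also fell, or of Mrps24, which rose.
Mrps27: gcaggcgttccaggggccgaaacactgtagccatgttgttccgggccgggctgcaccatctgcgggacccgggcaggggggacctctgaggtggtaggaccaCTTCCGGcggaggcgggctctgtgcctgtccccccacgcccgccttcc
Mrpl32: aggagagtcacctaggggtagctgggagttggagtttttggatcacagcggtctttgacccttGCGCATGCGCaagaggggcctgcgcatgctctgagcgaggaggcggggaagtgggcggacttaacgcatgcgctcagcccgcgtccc
Mrpl20: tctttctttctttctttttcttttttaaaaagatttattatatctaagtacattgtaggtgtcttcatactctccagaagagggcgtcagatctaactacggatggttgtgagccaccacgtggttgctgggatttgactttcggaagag
Mrps22: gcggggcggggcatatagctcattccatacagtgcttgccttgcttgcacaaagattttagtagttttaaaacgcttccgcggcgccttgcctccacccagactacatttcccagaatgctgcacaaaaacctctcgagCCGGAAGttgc
Mrpl44: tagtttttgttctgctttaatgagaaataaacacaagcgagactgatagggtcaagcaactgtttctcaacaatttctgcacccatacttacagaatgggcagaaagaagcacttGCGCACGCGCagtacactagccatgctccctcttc
Mrpl43: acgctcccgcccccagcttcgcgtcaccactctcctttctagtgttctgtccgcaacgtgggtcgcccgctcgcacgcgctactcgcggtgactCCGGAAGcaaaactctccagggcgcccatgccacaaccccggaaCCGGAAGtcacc
Mrps26: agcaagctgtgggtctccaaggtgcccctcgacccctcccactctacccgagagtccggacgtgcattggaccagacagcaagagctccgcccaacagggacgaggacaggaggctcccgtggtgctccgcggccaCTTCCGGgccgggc

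The libraries held 79718782, 63516302 and 55594979 counts in KMT2D KO and 56383873, 59360068 and 43168605 counts in KMT2D WT, and each mitoribosomal gene received between 164 and 4451 counts in each library. Kmt2d itself gave 73.0, 69.3 and 79.8 CPM (the count relative to a library size scaled by TMM) in KMT2D KO replicates 1, 2 and 3 and 79.7, 87.6 and 101 CPM in KMT2D WT. The groups overlapped, and the log2 fold change was -0.27 (SE 0.08, edgeR adjusted p = 0.0075), or -0.21 without KMT2D KO replicate 2 (adjusted p = 0.058). A partial deletion can leave the summed exon count of a gene largely in place, so this value does not check the labels. The melanocyte list of 10 genes summed to 658 to 692 CPM in KMT2D KO and 397 to 492 CPM in KMT2D WT. Nearly all of that sum was Gpnmb and Mitf, which were called higher, as was Mlana, and 7 genes lay under 1 CPM in both groups, among them the pigment genes Tyr, Tyrp1 and Dct at or below 0.163 CPM in every library. The fibroblast list of 9 genes, most of it collagen mRNA, summed to 21200 to 22200 CPM in KMT2D KO and 5550 to 5740 CPM in KMT2D WT. Of its genes 6 were called higher and 3 lower, Dpt (0.839 CPM in KMT2D KO and 44.8 CPM in KMT2D WT on average), Thy1 and Lum. Immune markers summed to 4.47 to 5.45 CPM in KMT2D KO and 12.0 to 20.7 CPM in KMT2D WT, and endothelial markers to 0.508 to 1.03 CPM in KMT2D KO and 1.12 to 2.29 CPM in KMT2D WT. Keratinocyte markers summed to 16.2 to 17.6 CPM in KMT2D KO and 11.2 to 15.0 CPM in KMT2D WT. Their genes did not move together. Trp63 was called higher (10.2 CPM in KMT2D KO and 0.784 CPM in KMT2D WT on average). Dsp was called lower (1.06 CPM in KMT2D KO and 6.25 CPM in KMT2D WT), and the other 4, all keratins, were not called. The cerebellar list of 10 summed to 5.79 to 7.48 CPM in KMT2D KO and 2.08 to 2.96 CPM in KMT2D WT. Its Cbln3, Syt1 and Mbp were called higher and Rbfox3 lower, and the other 6, among them Calb1, Pcp2, Gabra6 and Neurod1, were too low to be tested. The part of these lists in the results below was not tested.

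Mitoribosomal genes as a group were expressed at a somewhat lower level in KMT2D KO cells, with small changes for most genes. Their CPM summed to 1690, 1750 and 1570 in KMT2D KO replicates 1, 2 and 3 and to 2000, 2000 and 1810 in KMT2D WT. The 3 KMT2D KO sums lay below all 3 KMT2D WT sums, with means of 1670 ± 91.9 CPM in KMT2D KO and 1940 ± 111 CPM in KMT2D WT (SD, n = 3 each), a ratio of 0.862. In bulk samples, fewer cells of a type and less RNA per cell cannot be told apart. All 77 genes passed the low-count filter, and edgeR called 46 of them at an adjusted p under 0.05, or 59.7%, against 71.0% of all 14579 tested genes. Of these, 36 were lower in KMT2D KO (46.8%, against 35.5% of all genes) and 10 were higher (13.0%, against 35.4%), while 31 were not called. Scaled by library size alone, which moved the median of all genes by -0.11, 41 were lower and 3 higher. The median log2 fold change was -0.16, with quartiles of -0.46 and 0.11, beside a median of 0.00 and quartiles of -0.52 and 0.54 over all tested genes.

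The size of the changes was small for this comparison. Of the 77 genes, 39 (50.6%) had a log2 fold change within 0.25 of zero, against 26.4% of all tested genes. Within 0.5 lay 59 genes (76.6%, against 47.8%), and within 1.0 lay 75 genes (97.4%, against 71.9%). Only Mrpl19 and Mrps27 were called with a change above 1, a size and call that 26.8% of all tested genes showed. All KMT2D KO libraries lay on one side of all KMT2D WT libraries in 41 genes (53.2%), against 74.3% of all genes: KMT2D KO lay below KMT2D WT in 32 genes (41.6%, against 37.1% of all genes) and above it in 9 (11.7%, against 37.2%).

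**Figure D1:**
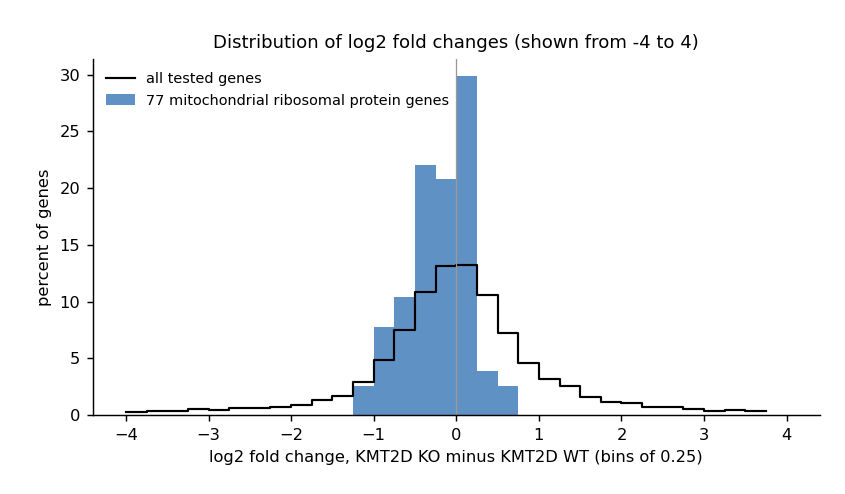
Percent of genes (y axis) in bins of log2 fold change, KMT2D KO minus KMT2D WT (x axis), for the 77 mitochondrial ribosomal protein genes (bars) and all 14579 tested genes (line). The bars reach from -1.23 to 0.65 and sit mainly left of zero, with a median of -0.16, while the line spreads more widely around a median of 0.00.

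The largest falls in the large subunit were in Mrpl19, Mrpl20, Mrpl32, Mrpl47, Mrpl54 and Mrpl36. CPM of replicates are given in the order 1, 2, 3. Mrpl19 (mm9 chromosome 6, 81907840 to 81915943, minus strand), of the bacterial bL19 family, had 9.06, 8.56 and 7.69 CPM in KMT2D KO and 20.1, 21.9 and 17.5 CPM in KMT2D WT. No KMT2D KO library came near the lowest KMT2D WT library, and the log2 fold change was -1.23 (SE 0.11, edgeR adjusted p = 8.3e-08). Exons of Mrpl19 overlap those of Gcfc2 in the annotation, so fragments there were left out of both genes and its value is uncertain. Mrpl20 (chromosome 4, 155177727 to 155182938, plus strand), a protein that binds ribosomal RNA early in assembly in bacteria, had 20.4, 20.3 and 17.3 CPM in KMT2D KO and 41.4, 38.9 and 34.0 CPM in KMT2D WT. These groups were also far apart (log2 fold change -0.98, SE 0.09, adjusted p = 1.9e-07). Mrpl32 (chromosome 13, 14702568 to 14705304, minus strand), whose precursor is cleaved by a protease of the inner mitochondrial membrane before it joins the ribosome, had 20.1, 22.8 and 17.9 CPM in KMT2D KO and 40.4, 33.0 and 35.5 CPM in KMT2D WT. Its log2 fold change was -0.84 (SE 0.10, adjusted p = 2.1e-06), again without overlap.

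Mrpl54 (chromosome 10, 80727467 to 80729671, minus strand), which has no bacterial counterpart, had 26.8, 27.6 and 21.4 CPM in KMT2D KO and 42.7, 44.6 and 43.2 CPM in KMT2D WT (log2 fold change -0.78, SE 0.09, adjusted p = 1.5e-06). KMT2D KO replicate 3 was the lowest, and the groups did not overlap. Mrpl36 (chromosome 13, 73468457 to 73469626, plus strand), of the smallest bacterial large subunit family, had 13.2, 13.1 and 9.93 CPM in KMT2D KO and 21.3, 23.5 and 15.9 CPM in KMT2D WT (log2 fold change -0.75, SE 0.14, adjusted p = 0.00023). Replicate 3 was the lowest library in both groups. Mrpl47 (chromosome 3, 32626419 to 32635677, minus strand), which sits near the exit of the peptide tunnel, was among the least abundant, with 5.46, 5.06 and 3.08 CPM in KMT2D KO and 8.88, 7.49 and 7.51 CPM in KMT2D WT. Its groups did not overlap either, and its change carried a wide error (log2 fold change -0.80, SE 0.18, adjusted p = 0.0011). Mrpl39 lies outside the rule for named genes and is added, after its values were seen, as the gene with the highest mean CPM in KMT2D WT: it had 41.7, 42.1 and 40.6 CPM in KMT2D KO and 64.7, 68.9 and 65.0 CPM in KMT2D WT. This was the smallest standard error of the 77 genes (0.0588), at a log2 fold change of -0.68 (adjusted p = 8.5e-08).

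In the Mrps series the largest falls were those of Mrps27, Mrps10, Mrps18b, Mrps22, Mrps30 and Mrps21. Mrps27 (chromosome 13, 100114741 to 100185516, plus strand), a pentatricopeptide repeat protein of the small subunit, had 7.90, 9.38 and 9.80 CPM in KMT2D KO and 17.7, 20.2 and 17.7 CPM in KMT2D WT. Every KMT2D KO library lay far below every KMT2D WT library (log2 fold change -1.04, SE 0.11, adjusted p = 5.2e-07). Its exons overlap the gene 6430562O15Rik, so its counts are uncertain too. Mrps10 (chromosome 17, 47505836 to 47515628, plus strand), a bacterial family protein of the head of the subunit, had 15.4, 15.2 and 13.1 CPM in KMT2D KO and 25.8, 25.8 and 27.0 CPM in KMT2D WT (log2 fold change -0.84, SE 0.09, adjusted p = 5e-07). Mrps18b (chromosome 17, 36047330 to 36053314, minus strand), 1 of 3 relatives of bacterial S18, had 15.2, 16.3 and 16.2 CPM in KMT2D KO and 28.2, 27.4 and 27.6 CPM in KMT2D WT. Its log2 fold change was -0.81 (SE 0.08, adjusted p = 2.3e-07), and neither gene's groups overlapped. The other relatives were not called: Mrps18a had a log2 fold change of -0.16 (adjusted p = 0.22) and Mrps18c one of -0.04 (adjusted p = 0.74). Mrps18a was called lower when scaled by library size alone or without KMT2D WT replicate 3. The differences among these relatives were not tested.

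Mrps22 (chromosome 9, 98489150 to 98502098, minus strand), a small subunit protein without a bacterial relative, had 12.5, 11.8 and 13.1 CPM in KMT2D KO and 20.9, 20.2 and 20.3 CPM in KMT2D WT (log2 fold change -0.71, SE 0.09, adjusted p = 2.8e-06). Mrps30 (chromosome 13, 119168917 to 119176059, minus strand) is a large subunit protein despite its symbol. It had 19.7, 19.2 and 17.2 CPM in KMT2D KO and 31.3, 28.4 and 28.8 CPM in KMT2D WT (log2 fold change -0.66, SE 0.08, adjusted p = 4.2e-06). Mrps21 (chromosome 3, 95666575 to 95674542, minus strand), of a bacterial family that is among the last to join the small subunit, had 22.5, 23.7 and 19.2 CPM in KMT2D KO and 30.9, 36.9 and 28.8 CPM in KMT2D WT. KMT2D KO replicate 3 was again the lowest, and the log2 fold change was -0.56 (SE 0.10, adjusted p = 0.00016). For all 3 genes every KMT2D KO library lay below every KMT2D WT library. Outside these 12 genes and Mrpl39, the called falls of the 2 series ran from -0.66 (Mrpl33, adjusted p = 8.7e-05) to -0.20 (Mrpl10, adjusted p = 0.016).

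Rises were fewer and smaller. Mrpl44 (chromosome 1, 79772593 to 79778020, plus strand), a large subunit protein with an RNase III-like fold, had 15.1, 15.2 and 13.4 CPM in KMT2D KO and 10.3, 9.51 and 8.09 CPM in KMT2D WT. The groups were apart, and its log2 fold change of 0.65 (SE 0.11, adjusted p = 9.7e-05) was the highest of the 77 genes. Mrps26 (chromosome 2, 130389493 to 130391130, plus strand), a mitochondrion-specific small subunit protein, had 20.2, 24.7 and 19.1 CPM in KMT2D KO and 16.1, 16.4 and 12.0 CPM in KMT2D WT (log2 fold change 0.52, SE 0.12, adjusted p = 0.0017). Mrpl43 (chromosome 19, 45079504 to 45080932, minus strand), the member with the highest mean CPM in KMT2D KO, had 58.0, 58.9 and 56.2 CPM there and 43.7, 47.8 and 44.3 CPM in KMT2D WT. Its libraries varied little, and the log2 fold change was 0.35 (SE 0.06, adjusted p = 0.00013). Mrps24 (chromosome 11, 5603986 to 5607702, minus strand), of the bacterial S3 family at the mRNA entry, had 11.8, 15.3 and 12.4 CPM in KMT2D KO and 9.80, 11.8 and 8.58 CPM in KMT2D WT. KMT2D KO replicate 1 and KMT2D WT replicate 2 nearly met, and the log2 fold change was 0.38 (SE 0.13, adjusted p = 0.018). Both without KMT2D KO replicate 2 (adjusted p = 0.11) and scaled by library size alone (adjusted p = 0.084) it was 0.27 and not called.

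The 6 remaining called rises had log2 fold changes of 0.23 to 0.25. Scaled by library size alone, these were 0.12 to 0.14 and not called (adjusted p = 0.16 to 0.28). In the small subunit they were Mrps2, Mrps5 and Mrps15, all of bacterial families. Mrps2 had 42.8, 44.5 and 38.8 CPM in KMT2D KO and 33.8, 37.1 and 36.7 CPM in KMT2D WT (log2 fold change 0.23, SE 0.07, adjusted p = 0.01), and 0.20 without KMT2D KO replicate 2 (adjusted p = 0.059). Mrps15 had 33.7, 32.6 and 30.7 CPM in KMT2D KO and 28.5, 28.6 and 25.3 CPM in KMT2D WT (0.23, SE 0.08, adjusted p = 0.013), and 0.21 without KMT2D KO replicate 1 (adjusted p = 0.065). Mrps5 had 28.0, 28.3 and 26.2 CPM in KMT2D KO and 25.8, 22.7 and 21.8 CPM in KMT2D WT (0.23, SE 0.08, adjusted p = 0.021), and was not called without KMT2D KO replicate 1, KMT2D KO replicate 2 or KMT2D WT replicate 2 (0.21 to 0.23, adjusted p = 0.067 in each). These 3 genes had no overlap between groups, but the gap was narrow.

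In the large subunit the small rises were Mrpl34, Mrpl55 and Mrpl30, and in each of them the groups overlapped. Mrpl34 had 26.0, 26.6 and 21.2 CPM in KMT2D KO and 20.0, 21.8 and 20.2 CPM in KMT2D WT (log2 fold change 0.25, SE 0.09, adjusted p = 0.027). Mrpl30 had 31.2, 31.9 and 27.0 CPM in KMT2D KO and 27.1, 26.7 and 23.0 CPM in KMT2D WT (0.23, SE 0.09, adjusted p = 0.032). Mrpl55 had 14.6, 14.2 and 12.3 CPM in KMT2D KO and 11.7, 10.9 and 12.3 CPM in KMT2D WT (0.24, SE 0.10, adjusted p = 0.0498). None of these 3 calls held when KMT2D KO replicate 1 was left out (0.20 to 0.22, adjusted p = 0.11 to 0.18) or KMT2D KO replicate 2 (0.20 to 0.22, adjusted p = 0.12 to 0.14). Mrpl34 was also lost without KMT2D WT replicate 1 (adjusted p = 0.068), Mrpl30 without KMT2D WT replicate 3 (0.081), and Mrpl55 without KMT2D WT replicate 1 (0.071) or 2 (0.14). Mrpl55 was not called either under RLE size factors (0.055), DESeq2 (0.065), a mean of at least 1 CPM (0.065) or the replicate block (0.06).

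**Figure D2:**
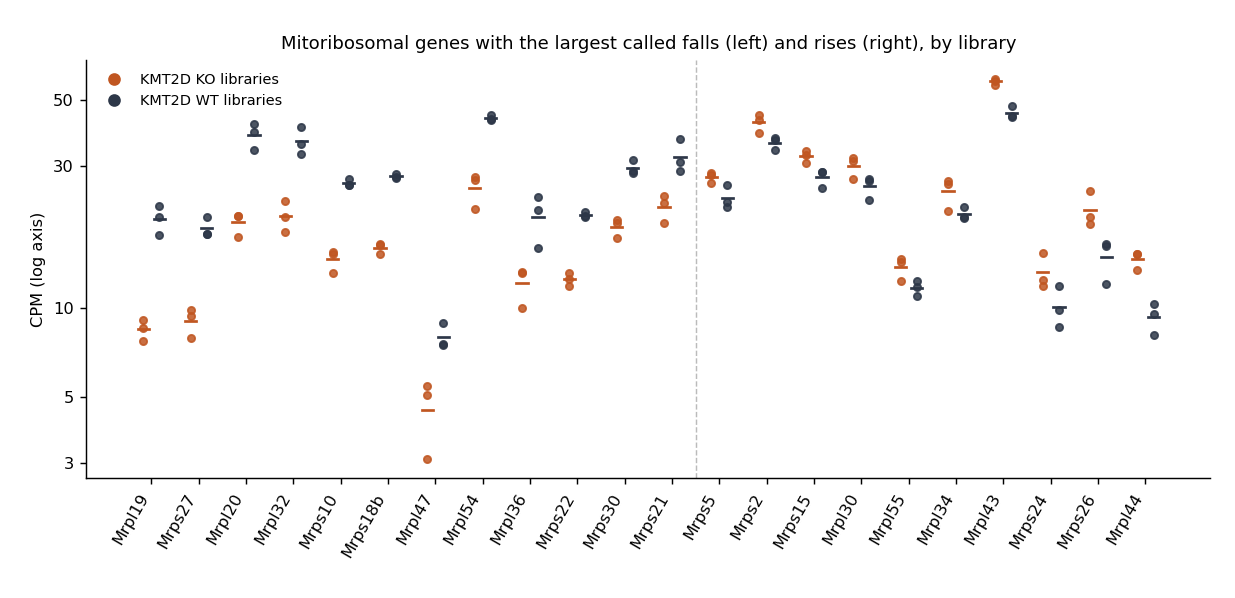
CPM (log axis) of the 12 largest called falls and the 10 called rises in each KMT2D KO (orange) and KMT2D WT (dark) library, with a dash at each group mean. The KMT2D KO points of Mrpl19 lie between 7.69 and 9.06, below KMT2D WT points of 17.5 to 21.9, whereas the gaps on the right of the dashed line are narrow and the points of Mrpl30, Mrpl55 and Mrpl34 overlap.

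Levels per length spanned 1.69 to 59.4 CPM per kilobase of exon in KMT2D KO and 3.97 to 79.1 in KMT2D WT. Averaged over both groups, the highest were Mrps21, Mrpl42 and Mrpl13 and the lowest Mrpl19, Mrpl1 and Mrpl35. The order differed within a group. In KMT2D WT, Mrpl54 (74.1) lay above Mrpl42 and Mrpl13, and Mrpl33 (70.0) above Mrpl13. In KMT2D KO, Mrps25 (4.02) and Mrpl17 (4.55) lay below Mrpl35. Mrps21 gave 53.5 ± 5.68 CPM per kilobase in KMT2D KO and 79.1 ± 10.4 in KMT2D WT. Mrpl42, which has no bacterial counterpart, gave 56.2 ± 5.61 in KMT2D KO and 71.7 ± 4.39 in KMT2D WT (log2 fold change -0.35, SE 0.08, adjusted p = 0.0011). Mrpl13, of a bacterial family, gave 59.4 ± 4.04 in KMT2D KO and 62.3 ± 3.38 in KMT2D WT and was not called (log2 fold change -0.07, SE 0.07, adjusted p = 0.38). Scaled by library size alone, Mrpl13 was called lower (-0.18, adjusted p = 0.033). In KMT2D KO Mrpl42 lay within its SD of both others, while Mrpl13, on top, lay above Mrps21 by slightly more than either SD. In KMT2D WT Mrps21 and Mrpl42 differed by less than the SD of Mrps21, and Mrpl13 lay below both. At the low end, Mrpl19 gave 1.69 ± 0.139 CPM per kilobase in KMT2D KO and 3.97 ± 0.437 in KMT2D WT. Mrpl1, a protein of the L1 stalk, gave 3.15 ± 0.277 in KMT2D KO and 4.15 ± 0.142 in KMT2D WT (log2 fold change -0.40, SE 0.09, adjusted p = 0.0014). Mrpl35 gave 4.59 ± 0.358 in KMT2D KO and 4.20 ± 0.292 in KMT2D WT and was not called (0.13, SE 0.09, adjusted p = 0.24). All these values are means ± SD with n = 3 in each group. Mrpl19, Mrpl1 and Mrpl35 have long exon models of 4996, 4188 and 3695 bases, against 407 bases for Mrps21. A level per length thus depends on how much of the annotated model is transcribed.

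Within each group, 1 library lay below the others for most of these genes. KMT2D KO replicate 3 held the lowest KMT2D KO value for 62 of the 77 genes, and KMT2D WT replicate 3 held the lowest KMT2D WT value for 48. The highest value was in KMT2D KO replicate 2 for 51 genes, and in KMT2D WT replicates 1 and 2 for 38 and 35. KMT2D KO replicate 3 and KMT2D WT replicate 3 had the fewest total counts of their groups, and the part of depth was not tested. The coefficient of variation between libraries had a median of 7.11% in KMT2D KO and 8.55% in KMT2D WT, beside 5.51% in KMT2D KO and 9.04% in KMT2D WT over all tested genes. Mrps33, chosen here after its values were seen for its spread, had 4.94, 6.54 and 5.90 CPM in KMT2D KO and 10.3, 8.28 and 5.63 CPM in KMT2D WT, and the largest standard error of the 77 genes (log2 fold change -0.49, SE 0.19, adjusted p = 0.029). Its groups overlapped, and it was not called without KMT2D KO replicate 1 or 3 or KMT2D WT replicate 1 or 2 (-0.49 to -0.27, adjusted p = 0.076 to 0.2). A total of 30 genes were called under all 14 fits tried, 27 of them lower and 3 higher, Mrpl44, Mrpl43 and Mrps26. Single fits called 52.5 to 75.6% of all tested genes, and the share called under all 14 was not counted. Centring on the chromosome median, described below, is not among these fits and brought Mrpl43 to 0.18 and Mrps26 to 0.25.

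By subunit, the large subunit (50 genes, with Mrps18a and Mrps30 counted there by position) had 5 higher and 23 lower, with a median log2 fold change of -0.17. The small subunit (26 genes) had 5 higher and 13 lower, with a median of -0.23. Called genes made up 56.0% of the large subunit and 69.2% of the small one, against 71.0% of all tested genes. Of all tested genes, 35.5% were called lower and 35.4% higher. Both subunits had lower sums in KMT2D KO. The large one summed to 1180, 1210 and 1080 CPM in KMT2D KO and 1390, 1390 and 1260 CPM in KMT2D WT. The small one summed to 502, 530 and 478 CPM in KMT2D KO and 601, 597 and 533 CPM in KMT2D WT. Neither pair of groups overlapped, but in the small subunit the sums of 530 and 533 CPM nearly met. Among the 48 proteins of bacterial families, Mrpl55 included, 7 were higher and 22 lower (median -0.08). Among the 28 specific to mitochondria, 3 were higher and 14 lower (median -0.29). Called genes made up 60.4% of the bacterial families and 60.7% of those specific to mitochondria. The differences between subunits and between families were not tested. Mrps36, which carries the symbol but is now known as a component of the 2-oxoglutarate dehydrogenase complex, had 11.5, 11.5 and 10.4 CPM in KMT2D KO and 12.1, 11.4 and 12.0 CPM in KMT2D WT and was not called (-0.09, SE 0.10, adjusted p = 0.44). Without the 10 genes whose exons overlap another gene, 10 were higher and 30 lower of 67 (59.7% called).

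**Figure D3:**
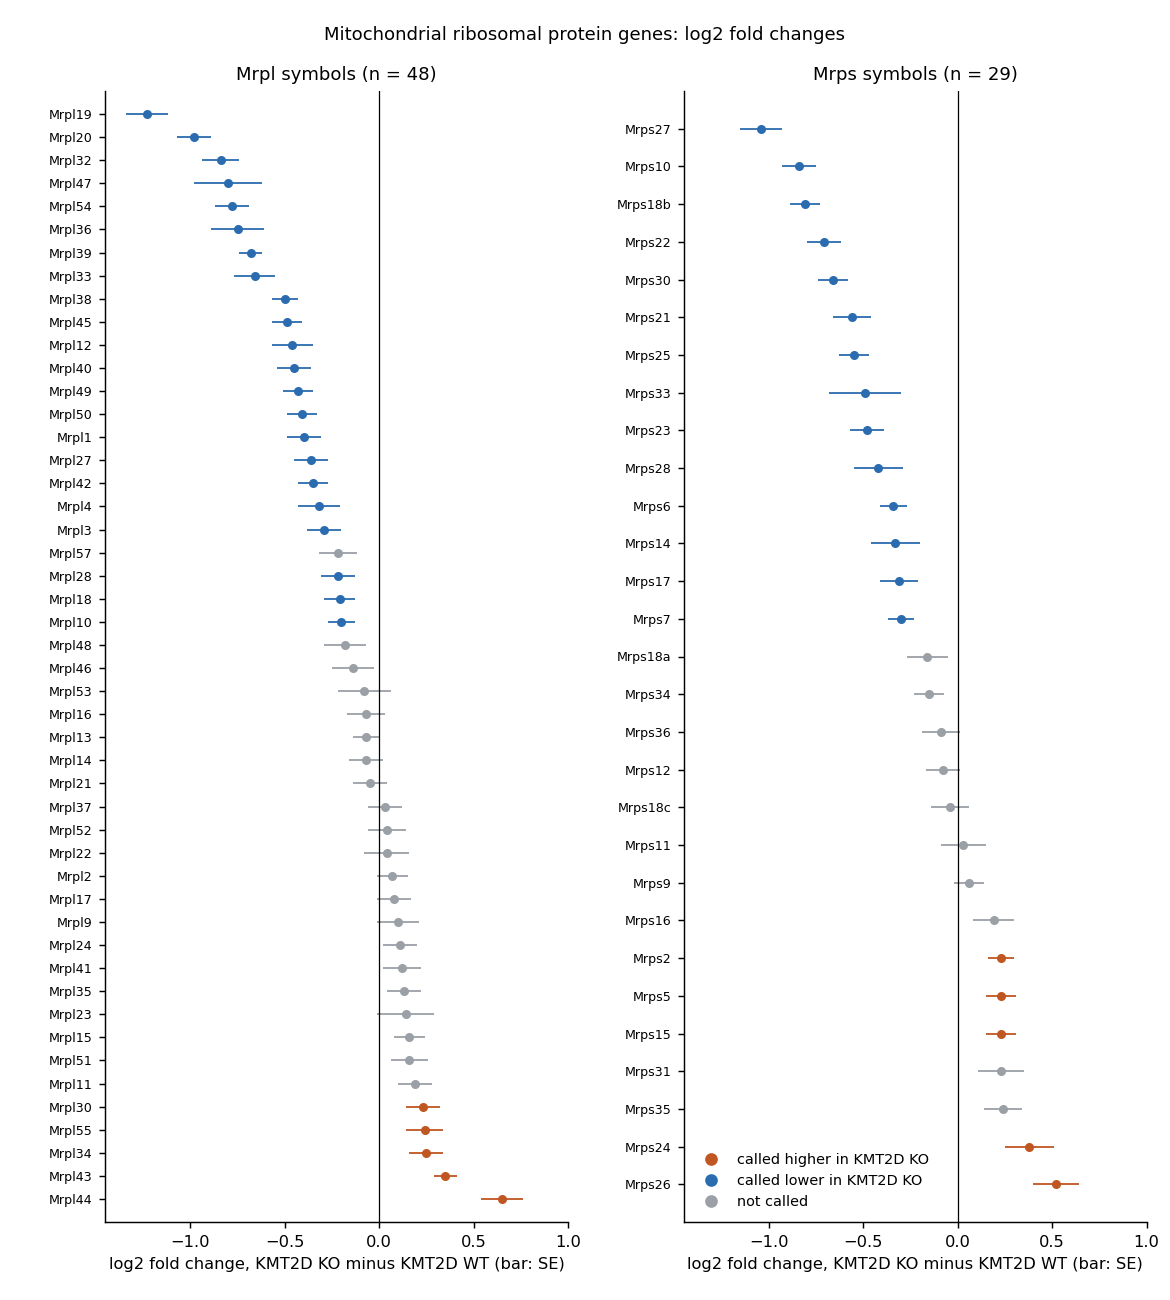
Log2 fold change, KMT2D KO minus KMT2D WT (x axis), of each of the 48 Mrpl genes (left) and 29 Mrps genes (right), with bars for the standard error and colours for the edgeR call. The blue points, called lower, reach -1.23 for Mrpl19 and -1.04 for Mrps27, and the orange points, called higher, reach 0.65 for Mrpl44 and 0.52 for Mrps26.

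Within the large subunit, 3 structural regions were read separately, against a background of 35.5% of all tested genes called lower and 35.4% called higher. Of the 5 genes of the stalk that recruits translation factors, 3 fell and 2 were not called. Mrpl12, the stalk protein that in human cells has also been reported to bind the mitochondrial RNA polymerase, had 28.1, 25.2 and 24.3 CPM in KMT2D KO and 28.1, 38.7 and 40.3 CPM in KMT2D WT. KMT2D WT replicate 1 lay at the level of KMT2D KO, so the groups overlapped (log2 fold change -0.46, SE 0.11, adjusted p = 0.0022). Mrpl54 is given above, and Mrpl10, to which copies of Mrpl12 attach, had a change of -0.20 (adjusted p = 0.016). That call was lost when any of the 3 KMT2D KO libraries or KMT2D WT replicate 2 was left out (-0.19 to -0.15, adjusted p = 0.056 to 0.077). Mrpl11 (0.19, adjusted p = 0.088) and Mrpl53 (-0.08, adjusted p = 0.61) were not called; Mrpl11 was called without KMT2D WT replicate 1 (0.24, adjusted p = 0.044).

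Of the 8 genes of the central protuberance, the crest of the subunit that faces the small subunit, 4 fell, and 1, Mrpl55, rose. Mrpl38 had 26.7, 26.1 and 23.8 CPM in KMT2D KO and 35.2, 37.8 and 35.5 CPM in KMT2D WT, without overlap (-0.50, SE 0.07, adjusted p = 2.2e-05). Mrpl40 had a log2 fold change of -0.45 (adjusted p = 0.00058) and Mrpl27 one of -0.36 (adjusted p = 0.0018). Mrpl18 had -0.21 (adjusted p = 0.028) and was not called without KMT2D KO replicate 3 (-0.12, adjusted p = 0.17) or KMT2D WT replicate 1 (-0.19, adjusted p = 0.082). Mrpl46 (-0.14), Mrpl48 (-0.18) and Mrpl52 (0.04) were not called, with adjusted p of 0.29, 0.17 and 0.74. Without KMT2D WT replicate 3, Mrpl46 (-0.23, adjusted p = 0.042) and Mrpl48 (-0.28, adjusted p = 0.013) were called. Mrpl48 was also called when scaled by library size alone (-0.29, adjusted p = 0.033).

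At the peptide tunnel exit, 2 of 6 genes fell. They were Mrpl47, described above, and Mrpl45, which holds the ribosome at the inner membrane and had 30.6, 33.2 and 30.3 CPM in KMT2D KO and 48.1, 40.7 and 43.3 CPM in KMT2D WT (-0.49, SE 0.08, adjusted p = 4e-05). The other 4, Mrpl17 (0.08), Mrpl22 (0.04), Mrpl23 (0.14) and Mrpl24 (0.11), were not called, with adjusted p of 0.31 to 0.79. The values of these 4 lay around zero and changed sign under library size scaling or without KMT2D WT replicate 3, as listed with the processing.

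Of 13 genes in which human mutations cause combined oxidative phosphorylation deficiency, 8 fell and 2 rose, with a median log2 fold change of -0.30. The 76.9% called lies near the 71.0% of all tested genes. The falls were Mrps22 and Mrpl12, given above, Mrps25 (-0.55, adjusted p = 2e-05), Mrps23 (-0.48, adjusted p = 0.00034), Mrps28 (-0.42, adjusted p = 0.01), Mrps14 (-0.33, adjusted p = 0.034), Mrps7 (-0.30, adjusted p = 0.0018) and Mrpl3 (-0.29, adjusted p = 0.0084). Mrps28 was not called without KMT2D KO replicate 3 (-0.31, adjusted p = 0.058) or KMT2D WT replicate 2 (-0.32, adjusted p = 0.06). Mrps14 was not called without KMT2D KO replicate 1 or 3 or KMT2D WT replicate 1 or 2 (-0.32 to -0.20, adjusted p = 0.094 to 0.19), nor Mrpl3 without KMT2D KO replicate 1 (-0.25, adjusted p = 0.0538). The rises were Mrpl44 and Mrps2. Mrps16 (0.19, adjusted p = 0.14), Mrps34 (-0.15, adjusted p = 0.088) and Mrpl24 were not called. Scaled by library size alone, Mrps34 was called lower (-0.26, adjusted p = 0.0066). Mrps25 and Mrps23 are among the genes whose exons overlap another gene.

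The 31 genes that were not called had log2 fold changes between -0.22 and 0.24. In 4 of them the groups nonetheless did not overlap: Mrps34 and Mrps12 lay lower in KMT2D KO, and Mrpl11 and Mrps35 lay higher. Mrps35 came nearest to the threshold, with 13.8, 16.1 and 14.4 CPM in KMT2D KO and 13.0, 13.4 and 11.0 CPM in KMT2D WT (0.24, SE 0.10, adjusted p = 0.0516); it and Mrps34 and Mrps12 are named after their values were seen, for this lack of overlap. Conversely, groups overlapped in 9 of the 46 called genes: Mrps33, Mrpl12, Mrps14, Mrpl4, Mrps17 and Mrpl28 among the falls, and Mrpl30, Mrpl55 and Mrpl34 among the rises. Of all tested genes, 74.3% had no overlap between groups, and this share was not counted by call. Mrpl28 had 28.0, 28.3 and 28.1 CPM in KMT2D KO and 35.2, 35.6 and 27.2 CPM in KMT2D WT, with only KMT2D WT replicate 3 at the KMT2D KO level (-0.22, adjusted p = 0.0484). It was called with all libraries or without KMT2D WT replicate 3, and not without any other single library (-0.21 to -0.15, adjusted p = 0.12 to 0.22). Mrpl4 (-0.32, adjusted p = 0.021) was lost without KMT2D KO replicate 1 or 3 or KMT2D WT replicate 1 or 2 (-0.29 to -0.24, adjusted p = 0.075 to 0.14). Mrps17 (-0.31, adjusted p = 0.011) was lost without KMT2D KO replicate 1 or 3 or KMT2D WT replicate 2 (-0.28 to -0.23, adjusted p = 0.056 to 0.08). Mrpl28, Mrpl4 and Mrps17 are named after their values were seen.

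Genes of whole chromosomes differed between the groups in these libraries, so each mitoribosomal gene was also set against the median log2 fold change of all tested genes on its mm9 chromosome. Over all chromosomes, 35.5% of tested genes were called lower and 35.4% higher, and these shares were not counted by chromosome. On chromosome 13, where the median of the chromosome was -0.54, 4 of 5 mitoribosomal genes fell, among them Mrps27, Mrpl32 and Mrpl36. All 3 on chromosome 16 (median of the chromosome -0.44) and all 3 on chromosome 9 (-0.30) fell. On chromosome 2 (0.27), 3 of 4 rose. Against this, on chromosome 6 (0.42) 3 of 7 fell, Mrpl19, Mrps25 and Mrps33, and the other 4 were not called, and on chromosome 11 (0.07) 7 of 10 fell and 2 rose. The 6 genes on chromosome 7 (0.15) had changes of -0.18 to 0.14, with adjusted p of 0.17 to 0.83, and were not called. None of the 77 genes lay on chromosomes 12, 18, X or Y.

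Measured from its chromosome's median, 55 of the 77 genes lay below and 22 above, with a median difference of -0.20. Of the 36 genes called lower, 33 lay below the median of their chromosome, the exceptions being Mrps6 (0.11 above), Mrps17 (0.04) and Mrpl3 (0.01). Of the 10 called higher, 8 lay above it, and Mrps2 and Mrps5 lay at -0.04 each. Centring shrank 13 of the called falls by more than 1.5 times or took them across zero, and likewise 6 of the called rises. Among the falls, Mrpl40 came to -0.0046, Mrpl4 to -0.02, Mrpl1 to -0.04, Mrps30 to -0.12, Mrpl39 to -0.23, Mrpl33 to -0.30 and Mrps22 to -0.41. Among the rises, Mrps26 came to 0.25, Mrpl43 to 0.18, Mrps15 to 0.10 and Mrpl34 to 0.04, while Mrpl44 stood at 0.71. Mrpl19 was further from its chromosome (-1.65) than from zero, Mrpl20 stood at -1.11, Mrps25 at -0.97 and Mrps33 at -0.91, whereas Mrps27 came to -0.51, Mrpl32 to -0.30 and Mrpl36 to -0.21. These centred values are descriptions without a test, and the part of the chromosome-wide shifts in single genes was not tested.

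**Figure D4:**
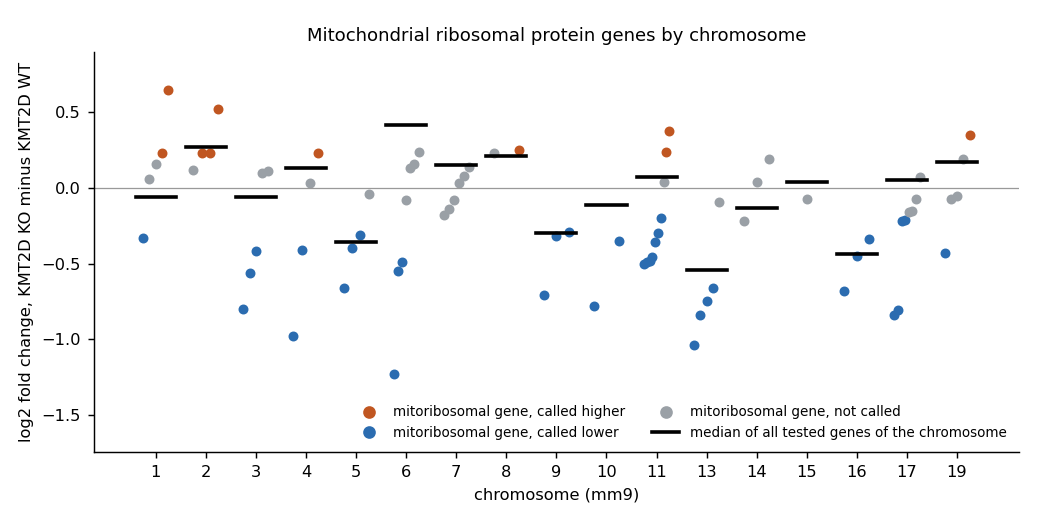
Log2 fold change, KMT2D KO minus KMT2D WT (y axis), of the 77 mitoribosomal genes by mm9 chromosome (x axis), with points coloured by call and a black dash at the median of all tested genes of that chromosome. On chromosome 6 all 7 points lie below the dash at 0.42. On chromosome 13 Mrps27, Mrpl32, Mrpl36 and Mrps30 lie below the dash at -0.54 and only Mrps36 lies above it.

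Head-to-head gene pairs, in which neighbouring genes start close together on opposite strands, were common among mitoribosomal genes. A neighbour that started less than 1000 bases away in the divergent orientation was found for 27 of the 77 genes (35.1%) and for 2073 of the 14579 tested genes (14.2%). In 8 of 26 such pairs with both genes tested, both were called, 6 in the same direction and 2 in opposite directions. Both genes were thus called in 30.8% of pairs, against 41.8% of 964 head-to-head pairs among all tested genes. Of the 403 pairs called in both genes there, 74.9% moved in the same direction, a share close to the 6 of 8 here. Both genes fell in Mrps27 with Ptcd2, a mitochondrial RNA-binding protein (-1.04 and -1.09, starts 108 bases apart), and in Mrpl32 with the proteasome subunit gene Psma2 (-0.84 and -0.67, 205 bases). Both also fell in Mrpl40 with the histone chaperone gene Hira (-0.45 and -0.44, 113 bases) and in Mrpl18 with the chaperonin gene Tcp1 (-0.21 and -0.52, 238 bases). Both rose in Mrpl43 with Peo1, the mitochondrial DNA helicase Twinkle (0.35 and 0.66, 116 bases), and in Mrpl30 with Mitd1 (0.23 and 0.41, 142 bases). In Mrpl49 with Fau, which encodes a cytosolic ribosomal protein (-0.43 and 0.71, 137 bases), and in Mrpl50 with Zfp189 (-0.41 and 1.09, 93 bases), the mitoribosomal gene fell and the neighbour rose. Mrpl46 and Mrps11, which start 42 bases apart, were neighbours of each other, and neither was called. Over the 26 pairs the log2 fold changes had a Pearson coefficient of 0.32 and a Spearman coefficient of 0.28, as a description across gene pairs that share the same 6 libraries and, in part, their chromosome. The neighbours were named after their values were seen.

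**Figure D5:**
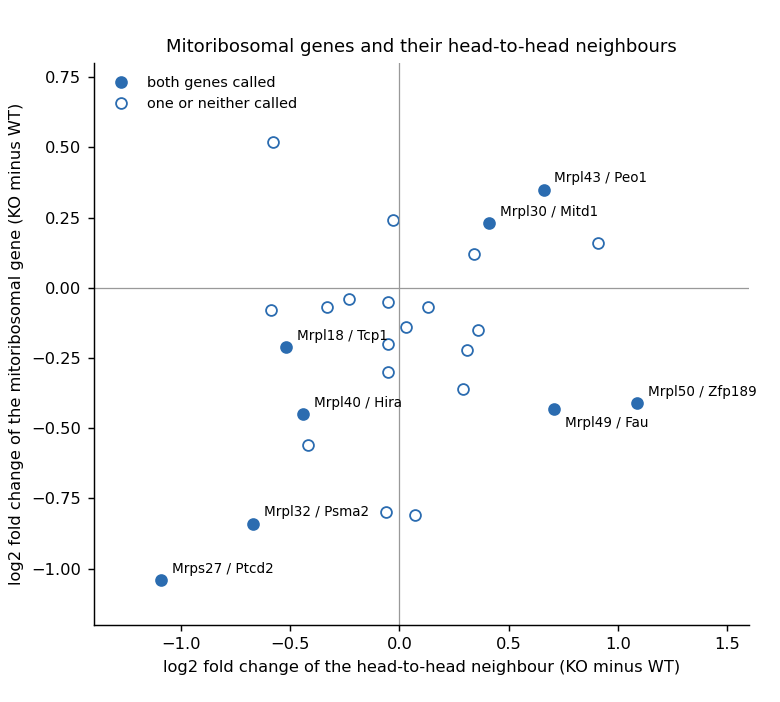
Log2 fold change of each mitoribosomal gene (y axis) against that of its head-to-head neighbour (x axis), KMT2D KO minus KMT2D WT, for 26 pairs, with filled points where both genes were called. Filled points lie at the lower left for 4 pairs, at the upper right for 2, and at the lower right for Mrpl49 with Fau and Mrpl50 with Zfp189.

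Promoter windows of 300 bases (250 before to 50 after the start) were matched by symbol for 68 of the 77 genes. At least 1 match to the NRF1 motif was present in 19.1% of them, against 5.19% of 27025 genes in the table. The ETS motif was present in 36.8%, against 9.93%, and the YY1 motif ATGGCGG in 19.1%, against 4.69%, each on either strand. At least 1 of the 3 motifs was present in 60.3% of mitoribosomal windows and in 17.3% of all. The 27025 genes include genes too low to be tested here, whereas all 77 mitoribosomal genes were tested. Motif shares among the 14579 tested genes were not counted. By call, 16 of 31 genes that fell (51.6%), 7 of 10 that rose (70.0%) and 18 of 27 that were not called (66.7%) had a match, and these differences were not tested. A match says only that these letters are present.

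Other genes of mitochondrial translation were read from lists. Of 6 mitoribosomal proteins with other symbols, 4 fell and 2 rose. Chchd1, a small subunit protein, had 15.5, 15.7 and 12.7 CPM in KMT2D KO and 33.5, 29.8 and 29.6 CPM in KMT2D WT (log2 fold change -1.08, SE 0.10, adjusted p = 1e-07), and Aurkaip1, also of the small subunit, had a change of -0.63 (adjusted p = 2.8e-05). Gadd45gip1, of the large subunit, rose by 0.38 on the log2 scale (adjusted p = 0.0018). Dap3, a GTP-binding protein of the small subunit, had 0.20 (adjusted p = 0.013), lost without KMT2D KO replicate 1 (adjusted p = 0.0528) and under scaling by library size alone (0.09, adjusted p = 0.24).

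Of 25 assembly factors, 9 fell and 4 rose. Mterf4, which brings an RNA methyltransferase to the large subunit, had 165, 160 and 171 CPM in KMT2D KO and 31.9, 30.1 and 35.1 CPM in KMT2D WT (2.35, SE 0.07, adjusted p = 1.5e-13). No mitoribosomal gene had a change of that size in either direction. The methyltransferase gene Mettl15 had a change of 0.73 (adjusted p = 0.0025), the GTPase gene Noa1 one of -0.73 (adjusted p = 6.7e-05) and Mterf3 one of -0.66 (adjusted p = 2e-05). Of 15 translation factors, 7 fell and 2 rose. The mRNA-stabilising factor Lrpprc had 67.3, 67.7 and 64.2 CPM in KMT2D KO and 119, 107 and 108 CPM in KMT2D WT (-0.75, SE 0.06, adjusted p = 2.7e-08). The ribosome recycling factor Mrrf had -0.68 (adjusted p = 2.1e-05), the release factor Mtrf1 0.53 (adjusted p = 0.0086) and the membrane insertase Oxa1l 0.46 (adjusted p = 8.3e-05).

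Of 17 mitochondrial aminoacyl-tRNA synthetases, 8 fell and 3 rose. Yars2 had 4.86, 5.37 and 5.04 CPM in KMT2D KO and 13.0, 12.2 and 13.6 CPM in KMT2D WT (-1.35, SE 0.11, adjusted p = 4.2e-08), and Wars2 had a change of -1.30 (adjusted p = 4.2e-07). Pars2 rose, with a change of 0.75 (adjusted p = 0.00079). Of 13 factors of mitochondrial transcription and its nuclear regulation, 3 fell and 4 rose. Gabpa, the DNA-binding subunit of GABP, had 72.3, 70.7 and 70.9 CPM in KMT2D KO and 152, 144 and 163 CPM in KMT2D WT, far apart (-1.10, SE 0.06, adjusted p = 2.4e-10). Tfb2m, an initiation factor of the mitochondrial RNA polymerase, had -0.32 (adjusted p = 0.0031). Nrf1 had 28.3, 30.4 and 28.7 CPM in KMT2D KO and 22.6, 22.8 and 21.9 CPM in KMT2D WT (0.38, SE 0.07, adjusted p = 0.00029). The coactivator Ppargc1b had 1.06 to 1.56 CPM in KMT2D KO and 0.646 to 0.738 CPM in KMT2D WT (1.02, SE 0.32, adjusted p = 0.01), a call lost without KMT2D KO replicate 1 (adjusted p = 0.069). Against the median of their chromosomes, Nrf1 came to -0.04, Gabpa to -0.66, Noa1 to -0.37, Mterf3 to -0.12, Mettl15 to 0.46 and Gadd45gip1 to 0.17. The background for these 5 lists is the 35.5% of all tested genes called lower and the 35.4% called higher, and no list was tested as a set.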

How the data were processed

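The authors deposited raw fragment counts per gene in whole numbers, from featureCounts 1.5.2 run on the exons of an mm9 gene model, per the file headers. The submitters' processing notes also list STAR and HTSeq, without roles or versions. The command in the headers asked for no strandedness, and by the program's default it dropped fragments with several alignments or touching more than 1 gene. Counts of the 10 mitoribosomal genes whose exons overlap another gene (Mrpl19, Mrpl24, Mrpl41, Mrpl48, Mrpl49, Mrpl53, Mrps6, Mrps23, Mrps25 and Mrps27), and of Mrpl23, Mrpl27, Mrpl48 and Mrps36, which have listed pseudogenes, are therefore uncertain. Mitochondrially encoded genes were not analysed here.

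From the counts, CPM were taken with TMM-scaled library sizes (factors 0.957 to 0.967 in KMT2D KO, 1.037 to 1.044 in KMT2D WT). Of the 24391 genes, 3978 had no count, and the default edgeR filter by group left 14579. These 14579 were tested for genotype by edgeR (version 4.0.16, R 4.3.3, quasi-likelihood F test, group-only model). Calls were made at 0.05 after Benjamini-Hochberg adjustment over all tested genes, and every adjusted p in the text is from this test unless a setting is named. A positive log2 fold change means higher in KMT2D KO. With 3 libraries against 3, an exact permutation test of a single value cannot go below 0.1, so none is given. Libraries of a group differed by more than sampling noise (chi-square 11.6 to 26.1 per degree of freedom), and log2 CPM correlated at 0.981 to 0.996 within groups and 0.868 to 0.882 between groups. The scripts were tested on simulated data.

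Genes were named by a rule: per symbol series the 6 largest called rises and falls with a mean of at least 1 CPM, the 3 highest and lowest per kilobase, the members of 4 structural or disease lists, up to 2 called rises and 2 called falls per pathway list, Kmt2d, and Mrps36. One gene that the rule names is not reported here. The members, the 15 lists and the rule were chosen with earlier results of these data known. Alternatives were RLE size factors, library size only, DESeq2 1.42.0, limma voom (limma 3.58.1), no filter, a mean of 1 CPM, the replicate number as a block, centring on the chromosome median, and leaving out each library. Promoter sequences are from RefSeq (GRCm38.p6), whose coordinates were not compared with mm9.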

Additional observations from a re-analysis of the deposited data

How the results depend on the processing

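The number of mitoribosomal genes called, 46, was 44 to 49 under RLE size factors, library size only, DESeq2, limma voom, no low-count filter, a mean of 1 CPM and the replicate block, and 34 to 49 when each library was left out in turn. The number called lower, 36, was 36 to 41 under the same settings and 28 to 40 with a library left out. No gene was called in the opposite direction under any of these settings. The number called higher was the least stable: 10 as reported, 3 under library size only, 9 to 13 under the other settings with all libraries, and 4 to 11 with a library left out. It was 5 without KMT2D KO replicate 1 and 4 without KMT2D KO replicate 2. Of all tested genes, 71.0% were called as reported and 63.6 to 72.4% with a library left out. With no low-count filter, 52.5% of 20413 genes were called, and under the other settings with all libraries 70.7 to 75.6%. Mitoribosomal genes were called less often than all tested genes as reported (59.7%). With no low-count filter they were called more often (49 genes), so this relation depends on the filter. The median log2 fold change of -0.16 was -0.27 under library size only, where that of all genes was -0.11, between -0.23 and -0.12 with a library left out, and -0.20 after centring.

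Deviations of same-numbered libraries from their group means correlated at 0.0149, 0.00949 and 0.00846. Between differently numbered libraries the correlations ran from -0.0171 to 0.00706. The same-numbered values were thus the highest, but all lay near zero, and whether the replicate numbers pair the samples cannot be decided from them. With the replicate block, 48 genes were called, 11 higher and 37 lower, without Mrpl55 and with Mrpl57, Mrps31 and Mrps35. Mrpl57 was also called under RLE size factors, library size only, DESeq2, limma voom and a mean of 1 CPM. Library size only further called Mrpl13, Mrpl48, Mrps18a and Mrps34 lower, none of them called in the main fit.

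Signs turned in values near zero. Centring gave Mrps2 and Mrps5 -0.04, Mrpl3 0.01 and Nrf1 -0.04. Library size only gave Mrpl52 -0.07, Mrpl17 -0.03, Mrpl22 -0.08 and Mrpl24 -0.0027. With a library left out, Mrpl52 ranged from -0.04 to 0.13, Mrpl17 from -0.0041 to 0.15, Mrpl22 from -0.10 to 0.14 and Mrpl23 from -0.02 to 0.25, each lowest without KMT2D WT replicate 3, and Mrpl53 reached 0.08 without KMT2D WT replicate 1. The causes were not tested. With standard errors of 0.0588 to 0.185, changes of about 0.2 lay at the limit of these libraries.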
